A study of Mus musculus with 10 samples.

Results

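Acetyl groups on histone lysines are placed by acetyltransferases, removed by erasers and bound by readers. The genes described here encode erasers and readers of the mouse, 35 of the 30677 genes of the count table, and were taken by name as histone deacetylases, sirtuins, and bromodomain and YEATS domain proteins. They comprise 18 erasers, namely Hdac1 to Hdac11 and Sirt1 to Sirt7, and 17 readers. Each symbol matched a single Ensembl identifier, and all 35 had enough counts to be tested.

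TNGA cells are mouse embryonic stem (ES) cells with a GFP reporter at a Nanog allele. They were kept in serum and leukaemia inhibitory factor (LIF) and treated for 48 hours with 100 μM MB-3, a small-molecule inhibitor of the acetyltransferase Kat2a (Gcn5), or with its solvent DMSO alone, and both groups contained 0.1% DMSO. RNA-seq of polyadenylated RNA gave 3 libraries for each treatment, lettered A, B and C, and H3K9ac, acetylation of histone H3 at lysine 9, was mapped by ChIP-seq, for which a single peak list per treatment was analysed. A single cell line and a single dose and time were sampled, and beyond the word triplicate nothing says that the letters are separate cultures, so p-values measure the spread between these libraries. The libraries held 48144367, 51137896 and 46863700 counts in DMSO A, B and C, and 49334434, 44985772 and 42270312 in MB-3 A, B and C. A level of 1 CPM, the count scaled to the normalised library size, therefore rests on 42.9 to 50.2 reads. The libraries carried the label's cell type: all 10 ES cell markers checked were detected, Pou5f1 and Nanog among them, and their summed level was 5135 to 5740 CPM in each library.

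Deacetylases of classes I, II and IV are zinc enzymes, and the sirtuins use NAD+. Hdac1, Hdac2 and Hdac3 work inside corepressor complexes, and several other erasers act in the cytoplasm or in mitochondria on proteins other than histones. Bromodomains bind acetyl-lysine in a hydrophobic pocket and YEATS domains bind acetylated or crotonylated lysine, and both kinds of reader bring transcription and remodelling complexes to acetylated chromatin. Kat2a, the target of the inhibitor, carries a bromodomain itself. Its transcript was at 126, 139 and 126 CPM in DMSO A, B and C and at 124, 131 and 133 CPM in MB-3 A, B and C. The groups overlapped, and the log2 fold change was -0.01 (SE 0.06), far from the threshold (adjusted p = 0.974 in edgeR's quasi-likelihood test, adjusted by Benjamini-Hochberg over 20027 genes).

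Most erasers and readers lay above the median level of ranked genes under DMSO, and readers as a set lay higher than erasers. To compare genes, levels were divided by the summed exon length (CPM per kilobase, mean ± SD over 3 DMSO libraries) and ranked among the 29668 genes with a length and at least 1 count in DMSO. The 35 genes had a median percentile of 75.6, against 66.4 for all tested genes. In all, 32 of the 35 lay above the median level of ranked genes, and 6 lay in the top 10%. Of all 20027 tested genes, 14732 lay above that median and 2967 in the top 10%. The readers had a median percentile of 82.4, above the 66.4 of all tested genes, and the erasers of 61.8, below it. The ranks shift with the length used, and the median percentile was 79.2 with the longest transcript as length and 70.8 among protein-coding genes only.

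The class I deacetylases Hdac2 and Hdac1 led the order. Hdac2 was at 61.0, 63.7 and 58.2 CPM per kilobase in DMSO A, B and C (rank 1287), and Hdac1, its partner in the Sin3, NuRD and CoREST complexes, at 56.4, 58.5 and 58.7 (rank 1358). These ranges overlapped, so the levels of this pair did not differ beyond the spread between libraries on this scale. Per kilobase of the longest transcript the ranges were apart and Hdac1 led, at 95.4, 98.9 and 99.3 against 84.0, 87.7 and 80.2 for Hdac2. Hdac3, the enzyme of the NCoR complex, followed at 15.2 ± 0.79. Hdac8, a class I enzyme that acts on the cohesin subunit Smc3, was the least abundant of the class at 1.43 ± 0.17.

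The class IIa deacetylases, which shuttle between nucleus and cytoplasm and bind Mef2 factors, were all lower than the first 3 class I enzymes. Hdac5 was the most abundant at 4.99, 5.16 and 5.61 CPM per kilobase in DMSO A, B and C, ahead of Hdac4 at 1.67, 1.54 and 1.37 and Hdac7 at 0.71 ± 0.21. Hdac9 was the least abundant of all 35 genes at 0.07, 0.07 and 0.06, which rests on 44 to 55 reads in each DMSO library. Of the remaining deacetylases, Hdac6, the cytoplasmic tubulin deacetylase, stood at 22.9, 22.2 and 21.1. The polyamine deacetylase Hdac10 was at 2.16 ± 0.08 and Hdac11, the only class IV enzyme, at 1.70, 2.01 and 1.88, and the ranges of Hdac10 and Hdac11 did not overlap. Per kilobase of the longest transcript they did, with Hdac10 at 2.52 ± 0.10 and Hdac11 at 2.71 ± 0.22.

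Among the sirtuins, the nuclear enzymes Sirt1 and Sirt6 came first per summed exon length. Sirt1 was at 26.0, 27.2 and 21.3 CPM per kilobase in DMSO A, B and C, and Sirt6, which removes acetyl groups from H3K9, at 9.31, 11.03 and 9.55. The cytoplasmic Sirt2 followed at 5.90 ± 0.24. Mitochondrial Sirt4 and Sirt3 were at 2.88 ± 0.14 and 1.99 ± 0.28 and nucleolar Sirt7 at 2.08 ± 0.08. The mitochondrial desuccinylase Sirt5 was the lowest of the class at 0.78, 0.84 and 0.81. Per kilobase of the longest transcript the ranges of Sirt6 and Sirt2 overlapped, at 13.7, 16.2 and 14.1 against 14.2, 14.5 and 13.4 in DMSO A, B and C.

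Readers ranged from 0.67 to 47.3 CPM per kilobase with a median of 11.8, and erasers from 0.07 to 61.0 with a median of 2.52. Yeats4, a subunit of the TIP60 and SRCAP complexes, was the most abundant reader per summed exon length, at 46.1, 49.1 and 46.7 CPM per kilobase in DMSO A, B and C. The bromodomain and extra-terminal (BET) protein Brd2, which recruits transcription factors and elongation factors to acetylated chromatin, was at 40.4, 40.5 and 39.5, and Baz2a, the large subunit of the nucleolar remodelling complex NoRC, at 43.6, 36.5 and 39.1. Brd2 and Baz2a overlapped, whereas Yeats4 lay above both in every DMSO library on this scale. Per kilobase of the longest transcript Brd2 led instead, at 67.9, 68.1 and 66.4 against 55.4, 46.4 and 49.7 for Baz2a and 48.7, 51.9 and 49.3 for Yeats4. Brd3, the other BET gene of the set, was at 18.2, 16.9 and 16.5.

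The bromodomain-PHD scaffolds of the Kat6a, Kat6b and Kat7 acetyltransferases were close to each other, with Brpf3 at 13.1, 10.4 and 11.9 CPM per kilobase in DMSO A, B and C, Brd1 at 10.8 ± 0.18 and Brpf1 at 8.79, 8.07 and 8.36. Brd8 of the TIP60 complex was at 18.6, 17.1 and 17.9, Brd7 of the PBAF form of SWI/SNF at 17.2 ± 0.39 and Brd9 of the GBAF form at 4.51, 4.77 and 4.61. The remodeller subunits other than Baz2a ran from Bptf of NURF at 15.4 ± 2.13 through Baz1b of the WICH complex at 14.9 ± 0.62, Cecr2 of CERF at 5.98 ± 0.46 and Baz1a of ACF at 4.002 ± 0.78 to Baz2b at 1.76, 1.31 and 1.57. Per kilobase of the longest transcript the order turned within these groups, with Brd1 at 17.7 ± 0.30 above Brpf3 at 14.2 ± 1.59, and Baz1b at 32.5, 29.9 and 31.4 in DMSO A, B and C above Bptf, which was highest in A at 20.5 and lowest in B at 15.6. The elongation factor readers Mllt1 and Mllt3, which join the super elongation and Dot1l complexes, were at 7.06 ± 0.39 and 0.67 ± 0.05.

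**Figure D1:**
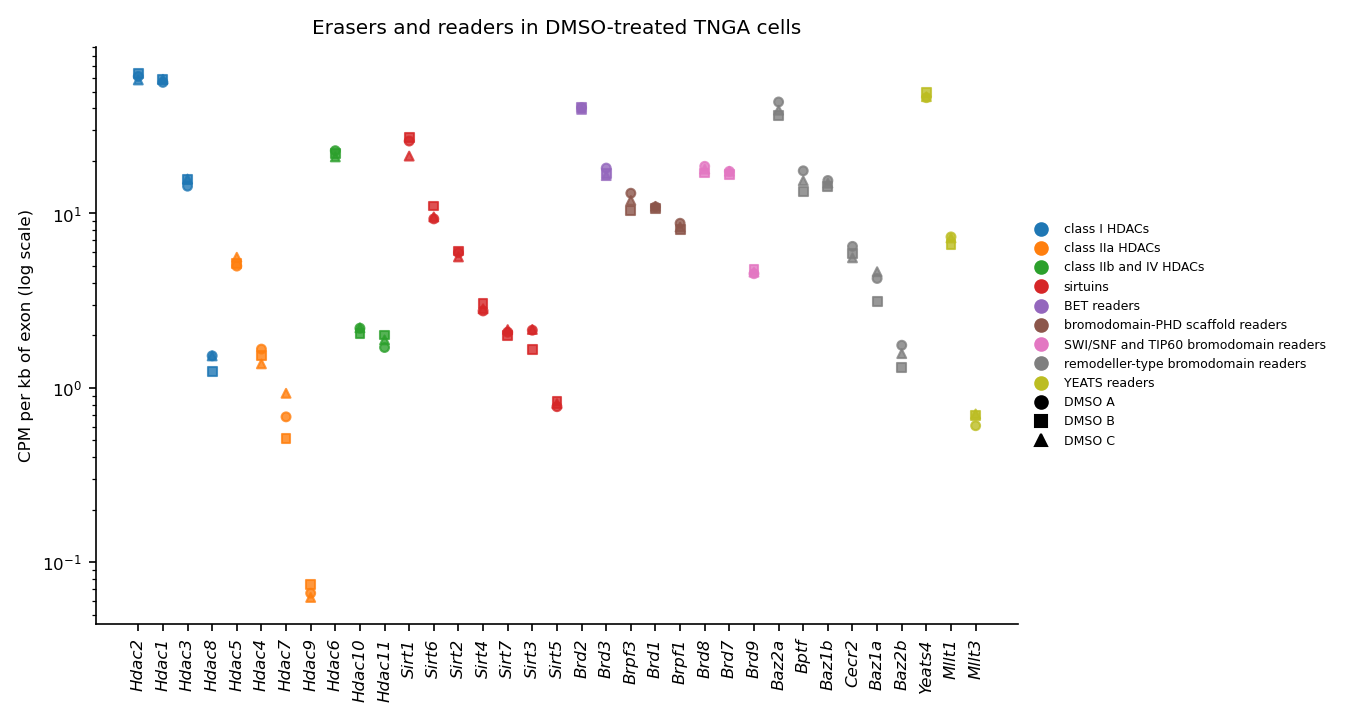
Level of each eraser and reader in the DMSO libraries A, B and C, in CPM per kilobase of exon on a log scale, coloured by class and ordered by level within a class. Hdac2 and Hdac1 are at the top with overlapping points, and Hdac9 is far below the other 34 genes.

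H3K9ac peaks could be tied to 7 of these genes by name, 6 of them with a named DMSO peak. The peak lists hold positions on mm9 and no gene names, and names were taken from the part of the study's peak annotation used here, which reaches 1999 peaks of each list and covers the DMSO peaks of chromosomes 1 and 10. All 6 erasers and readers on those chromosomes had a named DMSO peak, 8 peaks in total. Of these, 3 shared at least 1 bp with an MB-3 peak, or 37.5%, against 34.0% of the 1228 DMSO peaks on the same chromosomes and 35.8% of all 11724. Peaks were called on duplicates that the study merged because their reads were few, and the depth itself is unknown here, so no spread between replicates could be measured.

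The peak at Baz2a was the widest of the 8, with 1493 bp in DMSO (mm9 chr10:127496016-127497508) and 984 bp in MB-3, all of it inside the DMSO peak. Hdac4 had a DMSO peak of 585 bp (chr1:94075657-94076241) that was overlapped by an MB-3 peak of 283 bp, and another of 903 bp (chr1:94077226-94078128) that was not overlapped. The overlap covered 48.4% of the first, which would not count as kept at a minimum of 50%. Yeats4 had a peak of 281 bp (chr10:116661590-116661870) overlapped by an MB-3 peak of 427 bp, and beside it a peak of 762 bp (chr10:116660768-116661529) without an overlapping MB-3 peak. An MB-3 peak lay within 1000 bp of the latter, which would count as kept by that distance. The peaks kept by an overlap of at least 1 bp thus included the widest and the narrowest of the 8.

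The DMSO peaks of 3 erasers had no MB-3 counterpart. They measured 698 bp at Hdac2 (chr10:36694387-36695084), 697 bp at Sirt1 (chr10:62800385-62801081) and 578 bp at Sirt6 (chr10:81089749-81090326). No MB-3 peak lay within 1000 bp of any of these 3 peaks. On chromosome 17, where only MB-3 peaks had names, Brd2 had 4 MB-3 peaks, and all of them lay inside DMSO peaks of 983, 3011 and 288 bp. Brd2 was named from the MB-3 list, so the presence of an MB-3 peak there was fixed by the choice. Sirt1 was at 139, 145 and 114 CPM in DMSO A, B and C and at 149, 139 and 141 in MB-3, and Sirt6 at 25.9, 30.7 and 26.6 against 27.9, 28.3 and 27.2. For both genes, and for Hdac2, the groups overlapped, and none of the 3 passed the test in the fit with or without the replicate letter.

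**Figure D2:**
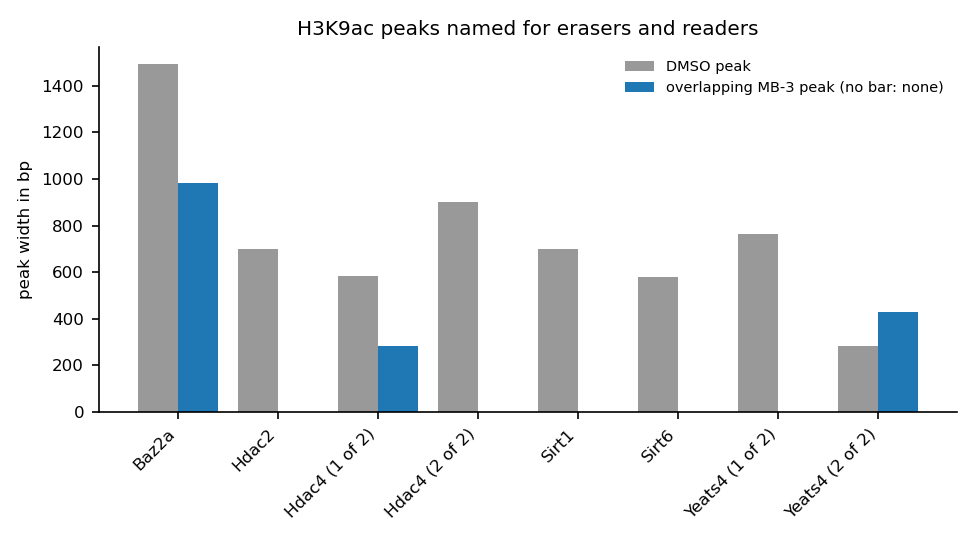
Width in bp of each DMSO H3K9ac peak named for an eraser or reader (grey bars), with the width of the overlapping MB-3 peak (blue bars). Blue bars are present for Baz2a and for a single peak each of Hdac4 and Yeats4, and are absent at Hdac2, Sirt1 and Sirt6.

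At the median, the promoters of these genes were richer in GC than promoters at large. RefSeq entries on GRCm38.p6 gave 39 promoters of 250 bases before the start for 29 of the genes. Cecr2, Baz1a, Hdac1 and Hdac10 had no entry, and Hdac3 and Brd8 were left out of the promoter set. The median GC content was 62.8%, with a range from 41.2% at Baz2b to 79.2% at Bptf and Sirt1, against a median of 52.4% over all 32851 promoters of that length, and the median number of CG dinucleotides was 19 against 6. The GC box GGGCGG, on either strand, was present in 64.1% of them and in 32.7% of all promoters. The E-box CACGTG, the recognition sequence of the Myc and Max family, was in 5.13% against 6.02%, and CCAAT on either strand in 35.9% against 33.8%. The erasers and readers had all passed the filter on counts, whereas the 32851 promoters were not limited to expressed genes. Shares were counted over promoters, so Hdac7, Brd2 and other genes with several starts entered more than once. The promoters of 4 genes with a named peak are shown for their range in GC boxes, Hdac2 and Sirt1 with a lost peak, Baz2a with a kept one and Yeats4 with 1 lost and 1 kept, 5′ to 3′ on the strand of the gene, with GC boxes on either strand in capitals. Peaks on mm9 were not placed on these GRCm38 sequences, which lie at chr10:36974294-36974543 (plus strand) for Hdac2, chr10:63339036-63339285 (minus strand) for Sirt1, chr10:128092533-128092782 (plus strand) for Baz2a and chr10:117224508-117224757 (minus strand) for Yeats4.
Hdac2: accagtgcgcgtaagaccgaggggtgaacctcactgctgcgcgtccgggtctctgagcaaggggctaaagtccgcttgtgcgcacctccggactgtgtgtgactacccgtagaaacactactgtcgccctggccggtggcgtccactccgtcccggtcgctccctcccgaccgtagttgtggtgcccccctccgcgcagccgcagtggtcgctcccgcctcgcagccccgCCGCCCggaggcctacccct
Sirt1: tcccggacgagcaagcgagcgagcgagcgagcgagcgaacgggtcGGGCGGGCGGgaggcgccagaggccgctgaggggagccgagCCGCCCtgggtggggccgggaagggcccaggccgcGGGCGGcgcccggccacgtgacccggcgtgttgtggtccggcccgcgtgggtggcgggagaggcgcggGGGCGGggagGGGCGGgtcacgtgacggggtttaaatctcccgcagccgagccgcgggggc
Baz2a: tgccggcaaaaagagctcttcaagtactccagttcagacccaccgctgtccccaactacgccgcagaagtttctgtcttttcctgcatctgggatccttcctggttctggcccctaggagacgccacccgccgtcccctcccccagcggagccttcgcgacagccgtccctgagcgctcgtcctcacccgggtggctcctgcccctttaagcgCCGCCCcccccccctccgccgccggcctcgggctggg
Yeats4: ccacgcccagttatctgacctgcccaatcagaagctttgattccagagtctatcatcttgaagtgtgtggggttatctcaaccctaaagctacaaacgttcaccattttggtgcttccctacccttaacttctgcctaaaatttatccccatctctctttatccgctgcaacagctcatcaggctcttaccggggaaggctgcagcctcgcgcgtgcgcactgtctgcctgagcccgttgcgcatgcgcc
Sirt1 held 6 GC boxes, some of them overlapping, and 2 E-boxes (in lower case), Hdac2 and Baz2a held 1 GC box each, and Yeats4 held none. Of the other genes with a named DMSO peak, Hdac4 held 4 GC boxes, and Sirt6, whose peak was lost, had 2 promoters, with 1 and 0 GC boxes. The GC box was thus present and absent among genes with a lost peak.

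MB-3 changed the transcripts of the erasers and readers little. When edgeR's quasi-likelihood test held treatment alone, 0 of the 35 genes passed an adjusted p-value of 0.05 (Benjamini-Hochberg), where 0.205% of all genes did. At an unadjusted p under 0.05 there was 1, Cecr2, where 10.9% of all genes had one, and DESeq2 and limma-voom called 0 as well. Libraries of the same letter deviated together, and a fit that held the replicate letter as block called 4 of the 35 genes, or 11.4%, against 7.12% of all genes, 2 higher and 2 lower in MB-3, where 3.22% of all genes were called higher and 3.9% lower. At an unadjusted p under 0.05 with the block there were 11 of the 35, against 20.1% of all genes. The 4 called genes were the readers Cecr2 and Bptf, which rose, and the eraser Hdac7 and the reader Baz1a, which fell. All log2 fold changes lay between -0.43 and 0.36, and the median standard error was 0.07 without and 0.05 with the block, against 0.10 and 0.08 over all genes. In RNA from whole cultures, fewer cells that express a gene and less RNA per cell cannot be told apart.

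Cecr2 (GRCm38 chr6:120666369-120771190), the bromodomain subunit of the CERF remodeller, was at 111, 101 and 95.1 CPM in DMSO A, B and C and at 127, 110 and 112 in MB-3. Every MB-3 library was above the DMSO library of its letter, while DMSO A overlapped the MB-3 group. The log2 fold change was 0.19 (SE 0.05) with the block and an adjusted p of 0.0076, against 0.35 without the block (edgeR with Benjamini-Hochberg adjustment). The call was lost when both A libraries were left out (0.18, adjusted p = 0.066 in the same edgeR test with the block), a setting in which 4.71% of all genes passed. In the test without the block, the value of 0.19 became 0.12 without MB-3 A and was not called whichever single library was left out.

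Bptf (chr11:107033081-107132127), the largest subunit of the NURF remodeller and a reader of both H3K4 methylation and histone H4 acetylation, was at 247, 187 and 217 CPM in DMSO A, B and C and at 266, 230 and 228 in MB-3. It was higher in MB-3 in all 3 letters, and the gap was widest in B. The log2 fold change was 0.16 (SE 0.05), with an adjusted p of 0.030 with the block and 0.57 without it (edgeR with Benjamini-Hochberg adjustment). Without both B libraries it was 0.09 and not called (adjusted p = 0.43, edgeR with the block, where 4.51% of all genes passed), and in the test without the block, where it was 0.15, it became 0.06 without DMSO B, 0.08 without MB-3 A and 0.25 without DMSO A.

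Hdac7 (chr15:97792664-97844502), the class IIa deacetylase that partners Mef2 factors, was at 4.61, 3.47 and 6.29 CPM in DMSO A, B and C and at 3.43, 2.91 and 4.34 in MB-3. It was lower in MB-3 in every letter, and the range among the DMSO letters was wider than the gap between treatments in any letter. The log2 fold change was -0.41 (SE 0.12), with an adjusted p of 0.028 with the block and 0.47 without it (edgeR with Benjamini-Hochberg adjustment). The call was lost without both A libraries (-0.41, adjusted p = 0.12) and without both C libraries (-0.34, adjusted p = 0.20) in the same edgeR test with the block, and 5.15% of all genes passed in the latter. In the test without the block, the value of -0.43 became -0.62 without DMSO B and -0.18 without DMSO C, and it was not called in either.

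Baz1a (chr12:54892989-55014348), the large subunit of the ACF remodeller, was at 30.4, 22.4 and 33.2 CPM in DMSO A, B and C and at 23.1, 23.6 and 26.2 in MB-3. It was lower in MB-3 in letters A and C and slightly higher in B. The log2 fold change was -0.22 (SE 0.07), with an adjusted p of 0.039 with the block and 0.48 without it (edgeR with Benjamini-Hochberg adjustment). It was -0.37 without both B libraries, and not called without both A (-0.14, adjusted p = 0.42) or both C libraries (-0.17, adjusted p = 0.21, edgeR with the block). Without DMSO B alone, Baz1a was also called in the test without the block (-0.39, adjusted p = 0.013, edgeR with Benjamini-Hochberg adjustment), where 2.55% of all genes passed, and without DMSO C it was -0.12.

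In Hdac7 and Baz1a the DMSO libraries stood in the order C, A, B. Sirt3, Sirt7, Hdac10, Brd1 and Brd7 had this order too, and the log2 fold changes of Brd1 and Brd7 were above 0 (0.10 and 0.03). Over all tested genes, C was the highest DMSO library for 31.5% and B the lowest for 35.5%, and the share with the full order was not counted. The summed level of each list of other cell types also stood in the order C, A, B. Single markers did not all do so. Fbln1, for example, was at 23.7, 24.4 and 25.8 CPM in DMSO A, B and C, and Lama1 at 40.8, 34.3 and 37.2. The summed level of 8 simple epithelium and contractile markers was 354, 250 and 569 CPM in DMSO A, B and C and 185, 155 and 260 in MB-3. All 8 were lower in MB-3, Vim being the most abundant at 119, 115 and 152 CPM in DMSO and 71.8, 73.4 and 76.9 in MB-3, and 7 of them passed the edgeR test with the block and 1, Vim, without it. The 5 primitive streak markers summed to 24.8, 15.2 and 46.2 CPM in DMSO A, B and C and to 9.96, 7.85 and 13.5 in MB-3, with T the most abundant. The 9 fibroblast markers summed to 33.4, 32.4 and 36.6 CPM in DMSO against 29.2, 31.5 and 31.3 in MB-3, and most of this sum was Fbln1, with a log2 fold change of -0.05 (SE 0.07). The collagen genes Col1a1, at 1.14, 0.757 and 1.24 CPM in DMSO A, B and C and 0.422, 0.250 and 0.583 in MB-3, and Col1a2 did not overlap between groups and fell in the edgeR test with the block (log2 fold changes of -1.33 and -1.28). The groups of Pdgfrb did not overlap either, but it was not called. The 9 extraembryonic endoderm markers summed to 68.3, 54.2 and 69.6 against 57.3, 53.4 and 58.5, with Lama1 the most abundant, and of these Col4a1 fell with the block (-0.46, SE 0.07). The 4 neuroectoderm markers summed to 67.3, 63.1 and 85.5 against 62.7, 59.8 and 64.7. In the last list Nes, the most abundant in DMSO, was lower in MB-3 in all 3 letters, whereas Pax6 was higher in all 3, at 23.9, 28.9 and 20.1 CPM in DMSO A, B and C and 33.3, 34.7 and 26.9 in MB-3, and Sox1 had a log2 fold change of 0.09 (SE 0.18). The DMSO order of Pax6 and Sox1 was B, A, C, the reverse of that of Hdac7. No marker was at 0 in all libraries, and whether cells of other types had a part in the values of Hdac7 and Baz1a was not tested.

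**Figure D3:**
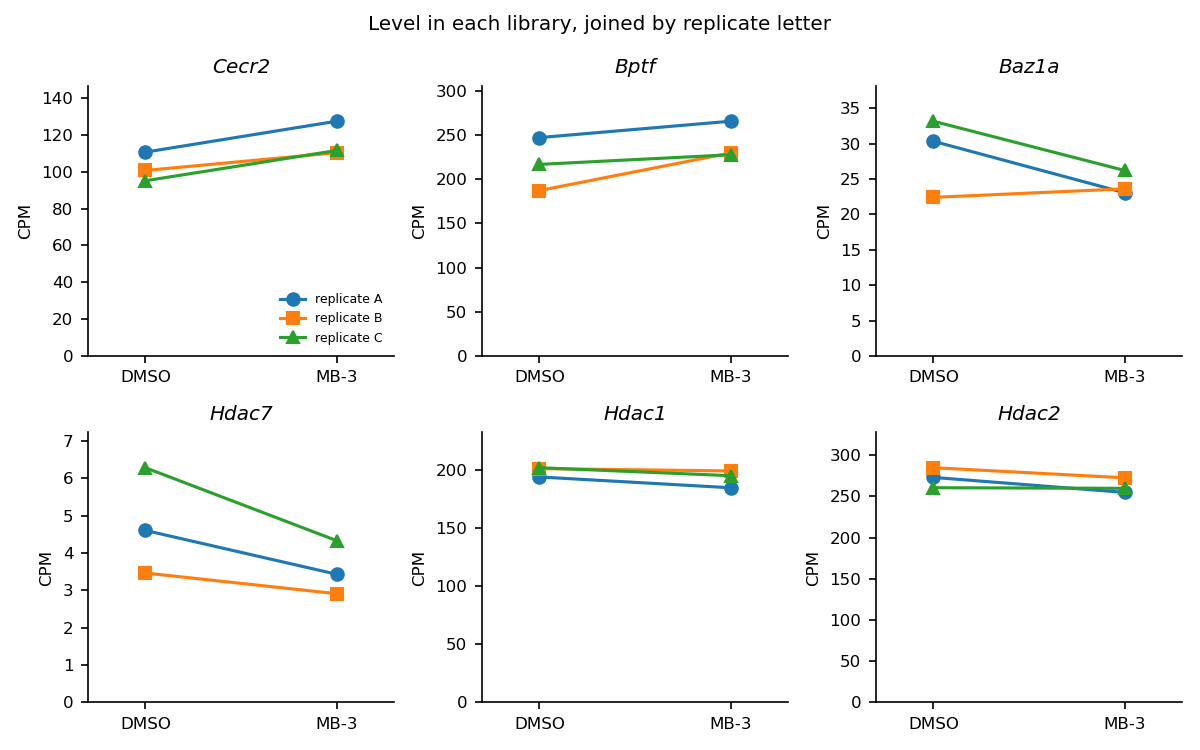
CPM of the 4 genes called with the replicate block and of Hdac1 and Hdac2, in each library, with lines joining the DMSO and MB-3 libraries of a letter. The lines of Cecr2 and Bptf rise in all 3 letters and those of Hdac7 fall in all 3, those of Baz1a fall in A and C only, and Hdac1 and Hdac2 stay close to level.

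The core deacetylases of corepressor complexes moved little. Hdac1 was at 194, 202 and 202 CPM in DMSO A, B and C and at 185, 200 and 196 in MB-3, a log2 fold change of -0.04 (SE 0.05). Hdac2 was at 273, 285 and 261 against 255, 273 and 260 (-0.06, SE 0.06), and Hdac3 had a log2 fold change of -0.04 (SE 0.07). The groups of these 3 genes overlapped, and their adjusted p-values lay between 0.76 and 0.88 (edgeR with Benjamini-Hochberg adjustment). Hdac8 was at 7.39, 5.98 and 7.38 CPM in DMSO and at 8.29, 7.51 and 7.48 in MB-3, so the groups did not overlap, with a log2 fold change of 0.17 (SE 0.11) that was not called. With a single library left out of the test without the block, that value ranged from 0.07 to 0.22.

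The largest change in size after Hdac7 was that of Hdac9, at 0.98, 1.10 and 0.92 CPM in DMSO A, B and C and 1.29, 1.502 and 1.05 in MB-3. It was higher in each letter, but at 44 to 66 reads a library its log2 fold change of 0.36 had a standard error of 0.21 and was not called. Hdac5 was at 43.8, 45.3 and 49.2 CPM in DMSO A, B and C and at 42.8, 39.0 and 44.0 in MB-3, lower in each letter, with a log2 fold change of -0.14 (SE 0.07). Hdac4 was at 26.4, 24.3 and 21.7 CPM in DMSO A, B and C and at 25.8, 24.4 and 26.2 in MB-3, a log2 fold change of 0.08 (SE 0.08), so the class IIa genes held both signs. With a single library left out of the test without the block, the value of Hdac4 ranged from 0.0085 to 0.15. Of the exon bases of Hdac4, 22.4% also belong to a gene on the opposite strand, and whether reads were counted by strand is not stated, so its counts may include reads of that gene.

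Hdac11 was at 6.56, 7.73 and 7.25 CPM in DMSO A, B and C and at 5.88, 6.85 and 6.11 in MB-3, with a log2 fold change of -0.19 (SE 0.11). It shares 17.9% of its exon bases with genes on the opposite strand. Hdac10 was lower in every MB-3 library than in any DMSO library, at 7.43, 6.95 and 7.46 against 6.57, 6.83 and 6.39 CPM. Hdac6 was higher in each letter, at 133, 129 and 123 CPM in DMSO against 137, 132 and 137 in MB-3, with a log2 fold change of 0.08 (SE 0.05). None of the 3 was called with or without the block.

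Among the sirtuins, Sirt4, a mitochondrial enzyme that restrains glutamine and fatty acid use, had the largest change. It was at 6.62, 7.27 and 6.81 CPM in DMSO A, B and C and at 6.19, 6.03 and 5.76 in MB-3. The groups did not overlap, and the log2 fold change of -0.20 (SE 0.10) had an adjusted p of 0.24 with the block and 0.48 without it (edgeR with Benjamini-Hochberg adjustment). Sirt3, which shares 12.7% of its exon bases with genes on the opposite strand, followed with -0.12 (SE 0.11). It ranged from -0.24 without DMSO B to -0.06 without DMSO C. Sirt1 had 0.11 (SE 0.08), ranging from 0.01 without DMSO C to 0.18 without DMSO B, and was called only with the block and without both B libraries. The other 4 sirtuins lay between -0.07 and 0.04. Of these, Sirt5 was at 4.75, 5.12 and 4.95 CPM in DMSO A, B and C and at 4.98, 4.92 and 5.38 in MB-3, and its groups overlapped.

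The remaining readers lay close together, mostly above 0. Brd2 was at 316, 317 and 309 CPM in DMSO A, B and C and at 332, 325 and 318 in MB-3. The groups did not overlap, but the log2 fold change was only 0.05 (SE 0.05), and 9.78% of the exon bases of Brd2 are shared with genes on the opposite strand. All 3 bromodomain-PHD scaffolds were higher in every letter, Brpf3 by 0.14 (SE 0.08), Brpf1 by 0.10 (SE 0.06) and Brd1 by 0.10 (SE 0.06) on the log2 scale without the block, and none was called. With a single library left out of that test, Brpf3 ranged from 0.06 to 0.22, Brpf1 from 0.06 to 0.14 and Brd1 from 0.07 to 0.13. Brpf3 was at 113, 90.2 and 103 CPM in DMSO A, B and C and at 118, 111 and 108 in MB-3, and Brpf1 at 59.6, 54.7 and 56.6 against 65.1, 58.9 and 59.6, so the groups of both overlapped. With the block, Brpf3 reached an adjusted p of 0.068 and Baz2a, with 467, 392 and 419 CPM in DMSO against 487, 438 and 464 in MB-3, of 0.078 (edgeR with Benjamini-Hochberg adjustment).

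Yeats4 was at 65.2, 69.5 and 66.1 CPM in DMSO A, B and C and at 63.0, 66.2 and 63.5 in MB-3, lower in each letter by a log2 fold change of -0.06 (SE 0.06). Mllt3 was at 7.29, 8.31 and 8.51 against 9.18, 8.74 and 8.79, with groups that did not overlap and a log2 fold change of 0.15 (SE 0.10). With a single library left out of the test without the block, the value of Mllt3 ranged from 0.08 to 0.19. Yeats4 and Mllt3 both missed the threshold. Brd3, Mllt1, Baz1b, Baz2b, Brd7 and Brd8 had log2 fold changes between 0.02 and 0.05, and Brd9 one of -0.04. Brd3 was at 134, 124 and 121 CPM in DMSO A, B and C and at 130, 126 and 134 in MB-3, and Brd8 at 198, 182 and 191 against 195, 193 and 192. Brd9 was at 31.4, 33.1 and 32.0 against 29.2, 32.7 and 32.0, and Baz2b at 30.9, 23.1 and 27.7 against 29.0, 24.8 and 30.3. In all 4 genes the groups overlapped.

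In all, the groups did not overlap for 6 of the 35 genes, or 17.1%, against 15.6% of all tested genes. MB-3 was above DMSO in Hdac8, Brd1, Brd2 and Mllt3, and below it in Hdac10 and Sirt4, where 8.23% of all genes lay above and 7.37% below. MB-3 was higher in all 3 letters for 11 of the 35 and lower in all 3 for 9 of the 35, and over all genes each of these patterns took 20.3%.

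The signs of the changes were counted for erasers and readers. The log2 fold change was above 0 for 14 of 17 readers and for 7 of 18 erasers, with medians of 0.05 and -0.04, where 49.7% of all tested genes were above 0 and their median was -0.00. No test of this difference was made. Without DMSO B the count of readers above 0 was 11, and over all other settings run it was 12 to 14, while that of erasers was 5 to 8.

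**Figure D4:**
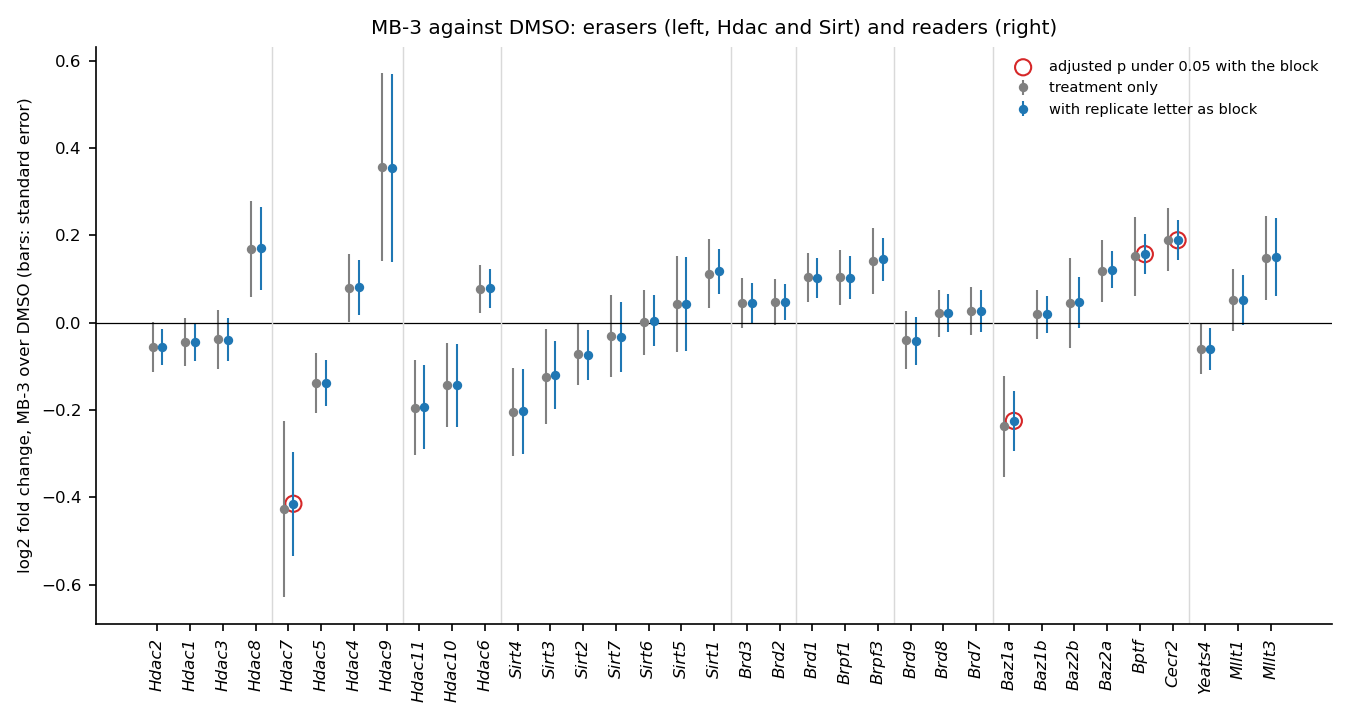
Log2 fold change of MB-3 over DMSO with its standard error for the 35 genes, from the test with treatment only (grey) and with the replicate letter as block (blue). Red circles mark Hdac7, Baz1a, Bptf and Cecr2, which passed an adjusted p-value of 0.05 with the block, and most readers, on the right, lie slightly above 0.

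Exon length moved with the sign of the change. Over the 35 genes, the log2 fold change had a Spearman correlation of 0.54 with summed exon length, and over the 19958 tested genes with a length it was 0.086. In both cases the points are genes of the same 6 libraries, and the value is a description. With the tested genes split by exon length into 5 equal groups, 14 of 17 readers fell into the longest group, against 4 of 18 erasers, and the median exon length was 8404 bases for readers and 5091.5 for erasers. The median log2 fold change of all tested genes went from -0.03 in the shortest group to 0.03 in the longest. Relative to the median of their own group, 12 of 17 readers and 7 of 18 erasers were above 0, with medians of 0.02 and -0.04.

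The libraries also differed by length. In the longest group of all tested genes the median deviation of a library from the mean was -0.07 on the log2 scale in DMSO B, the lowest of the 6, and 0.03 and 0.04 in DMSO A and MB-3 A. Among the 17 readers, A was the highest DMSO library for 10 and the highest MB-3 library for 11, and B was the lowest for 11 and 8. Over all tested genes, A was the highest for 31.4% in DMSO and 33.5% in MB-3, and B the lowest for 35.5% and 35.3%. Cecr2, Bptf and Baz2a, with exon lengths of 17082, 14081 and 10730 bases, were highest in A under both treatments. Not every long gene was. Baz2b and Hdac4, at 17604 and 15813 bases, were highest in C under MB-3, and Mllt3, at 12004 bases, was lowest in A under DMSO. The part of length in the readers' values was not tested beyond these counts.

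**Figure D5:**
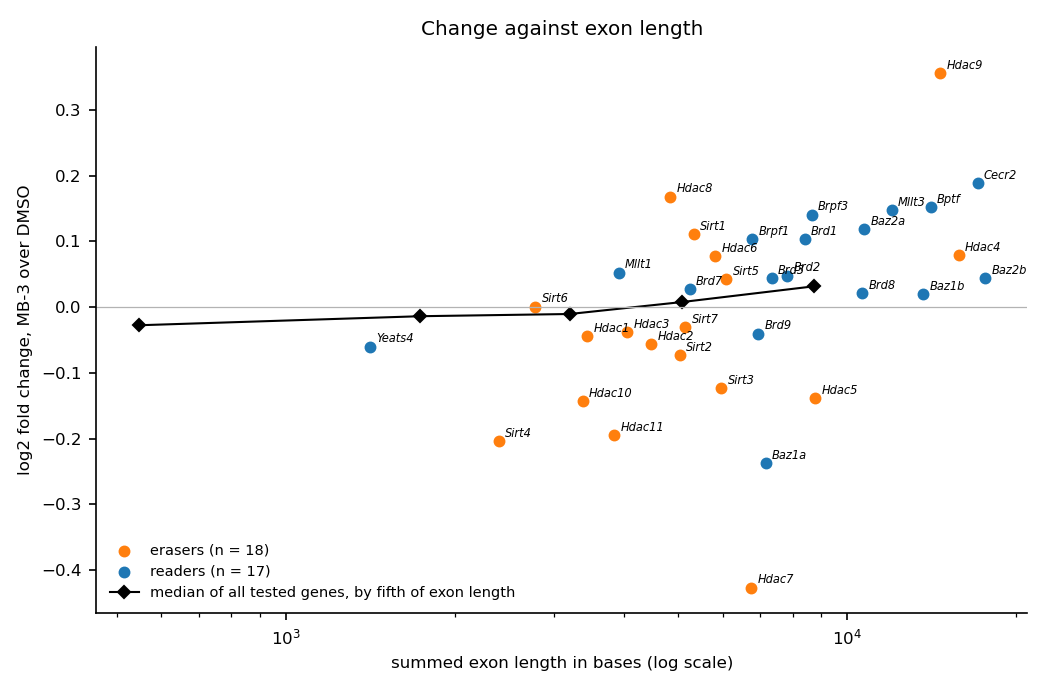
Log2 fold change of MB-3 over DMSO against summed exon length in bases (log scale) for the 18 erasers (orange) and 17 readers (blue), with the median of all tested genes in each of 5 groups by exon length (black diamonds). Readers lie mostly to the right and above the line, and Baz1a and Hdac7 lie far below it.

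Other genes of the complexes in which these proteins work, and of related complexes and families, were taken as 5 lists. They held 112 genes, of which 110 were tested, since Ell3 and Sp110 had too few counts. With treatment only, 1 of the 110 was called, where 0.205% of all genes were. The called gene was Jade3, a scaffold of the Kat7 acetyltransferase complex. It was at 60.3, 62.7 and 55.8 CPM in DMSO A, B and C and at 73.0, 77.7 and 75.3 in MB-3, groups that did not overlap, with a log2 fold change of 0.34 (SE 0.06, adjusted p = 0.049, edgeR with Benjamini-Hochberg adjustment). No partner gene was called with upper quartile normalisation, with a minimum of 1 CPM in 3 libraries, with limma-voom, or without DMSO A, DMSO C, MB-3 A or MB-3 B. With the block, 14 of the 110 passed, or 12.7% against 7.12% of all genes, and 11 of them rose and 3 fell. Over all lists, 76 of 110 genes had a log2 fold change above 0, with a median of 0.06.

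Of 36 subunits of the corepressor complexes that carry Hdac1, Hdac2 and Hdac3, 6 rose with the block and 0 fell, where 3.22% of all genes rose and 3.9% fell. They included the scaffold Sin3a, with a log2 fold change of 0.21 (SE 0.04), the corepressor Ncor1 (0.17, SE 0.04), and Chd4, the NuRD ATPase (0.15, SE 0.04). Ing2 rose too, as did Phf21a, which had the largest rise of the list (0.29, SE 0.06). Sin3a, Ncor1 and Ing2 share exon bases with genes on the opposite strand. The lowest value of the list was that of the NuRD ATPase Chd3, with -0.12 (SE 0.12) without the block, and it was not called.

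Of 20 remodeller subunits, 2 passed with the block, or 10.0% against 7.12% of all genes. Smarcc1, a core SWI/SNF subunit, rose by 0.16 (SE 0.04) and Phf10 of the PBAF complex fell (-0.18, SE 0.05), and these were also the largest rise and the largest fall. Of 19 genes of MYST acetyltransferase complexes, the kind that the bromodomain-PHD scaffolds and Brd8 join, 3 passed with the block, where 7.12% of all genes did. Jade3, Mbtd1 (0.17, SE 0.04) and the acetyltransferase Kat6b (0.16, SE 0.04) were all higher. The lowest value there was that of Ing4, with -0.08 (SE 0.13) without the block. Among 12 tested genes of the elongation complexes joined by Mllt1 and Mllt3, 1 passed with the block, or 8.33%, near the 7.12% of all genes. It was the scaffold Aff1, which fell (-0.22, SE 0.05). Eaf2, at under 1 CPM in each library, had the highest value of 0.20 (SE 0.24) without the block.

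Among 23 other tested bromodomain and YEATS genes, 2 passed with the block, or 8.70%, near the 7.12% of all genes. The acetyltransferase Ep300 rose by 0.16 (SE 0.05), and Trim66, with 1.64, 0.937 and 2.26 CPM in DMSO A, B and C and 1.06, 0.66 and 1.07 in MB-3, had a log2 fold change of -0.76 (SE 0.21). Trim66 had the lowest value of the list. Its DMSO libraries stood in the order C, A, B, as did those of Hdac7, Brd1 and other erasers and readers. The SWI/SNF ATPase Smarca2, chosen after its values were seen, was at 1.79, 1.55 and 2.01 CPM in DMSO A, B and C and at 1.16, 1.18 and 1.19 in MB-3, groups that did not overlap, with a log2 fold change of -0.60 (SE 0.19) that was not called in either fit. These values of Trim66 and Smarca2 lay beyond the range of the 35 genes. The highest value without the block was that of Crebbp, with 0.19 (SE 0.10), which was not called in either fit.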

How the data were processed

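The authors deposited raw counts per Ensembl gene, made from trimmed reads by alignment to mm10 with Bowtie and exon counting with GenomicAlignments; versions, annotation release and use of strand are not given in the sources used here. H3K9ac reads were aligned to mm9 with BWA, duplicates were merged, and MACS2 peaks against input were deposited as positions only, in another unit than counts, with no score. The input libraries were not analysed here.

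Symbols and coordinates came from GENCODE M21 (GRCm38) for 30540 of 30677 identifiers. Counts were normalised by TMM, filtered with filterByExpr (20027 genes kept) and tested with edgeR 4.0.16 (quasi-likelihood, treatment only, R 4.3.3), with Benjamini-Hochberg adjustment over all genes and a threshold of 0.05. The procedure was tested on simulated data. No pair of libraries of the same treatment was a duplicate (chi-square per gene of at least 8.39 in 6 pairs). Deviations from the group mean of log2(CPM + 1) correlated between same-lettered DMSO and MB-3 libraries (0.23 in A, 0.43 in B, 0.32 in C) and negatively between all others. Deviations cancel out within a group, so positive values for the same letter push the others below 0, and the negative ones are no separate support. From the positive values the letter was taken to pair the libraries, and the fit with the letter as block is given beside results it changes. The pairing comes from the data, not from a label. Members and lists were chosen with earlier results of these data known. Values in every library were given for genes called in either fit, the 5 largest changes, the most and least abundant gene of each class, and genes with a named peak; of each partner list the called genes and the largest rise and fall were named, except for a result that is not reported here, and 0 columns were left unused. Other settings were RLE and upper quartile normalisation, other filters, DESeq2 1.42.0, limma-voom (limma 3.58.1), edgeR's robust option, the block, each library left out, and, added after seeing the data, both libraries of a letter left out of the blocked fit and values relative to genes of like exon length. Tables and plots were made in Python 3.11.15 with pandas 2.3.3 and matplotlib 3.10.9.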

Additional observations from a re-analysis of the deposited data

How the results depend on the processing

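Of the 35 erasers and readers, 0 were called in the test with treatment only and with each other normalisation, filter, DESeq2, limma-voom and edgeR's robust option. The replicate block called 4. With the block and without both A, B or C libraries, a choice made after seeing the data, 1, 4 and 3 were called (Bptf without A; Baz1a, Cecr2, Hdac7 and Sirt1 without B; Bptf, Brpf3 and Cecr2 without C). With each library left out of the test without the block, 0 to 1 were called. Over all genes, the 41 calls became 25 with upper quartile normalisation, 194 without a filter, 24 with at least 1 CPM in 3 libraries, 192 with DESeq2, 18 with limma-voom, 66 with the robust option, 1425 with the block, 939, 912 and 1037 with the block and without A, B and C, and 0 to 520 with each library left out. Of the calls, 48.8% were higher in MB-3, against 32.0% with upper quartile normalisation, 25.8% without a filter, 37.5% with at least 1 CPM, 33.3% with limma-voom and 24.6% without DMSO B (128 of 520). The 1 partner gene became 0 with upper quartile normalisation, at least 1 CPM or limma-voom, 14 with the block, 11, 8 and 7 with the block and without A, B and C, and 0 to 4 with each library left out. The median percentile of the levels was 75.6, and 79.2 with the longest transcript as length, 70.8 among protein-coding genes and 84.5 without division by length. The cause of these shifts was not tested.

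Small log2 fold changes changed sign. Sirt6 (0.000732) was at -0.000672 with RLE, -0.00469 with upper quartile normalisation, -0.00562 without a filter, -0.000706 with DESeq2, -0.0469 and -0.00909 with the block and without A or C, and -0.0461 to 0.0799 with each library left out. With each library left out, Baz1b ranged from -0.0118 to 0.0476, Brd8 from -0.0114 to 0.0512, Baz2b from -0.0629 to 0.145, Hdac3 from -0.0865 to 0.0197, Brd9 from -0.0743 to 0.00893, Sirt7 from -0.0936 to 0.0471 and Brd7 from -0.000607 to 0.0476. With the block, Brd8 was at -0.0122, Sirt7 at 0.0181 and Brd7 at -0.0199 without B, and Hdac4 was at -0.0127 and Brd3 at -0.00498 without C. None of these genes was called in any of these fits. Hdac9, the gene with the fewest reads, had a standard error of 0.21 without the block.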
